A study of Homo sapiens with 2 samples.

Results

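Nuclear pore complexes are the channels that join the nucleus to the cytoplasm, and the genes that encode their subunits are described here by their peaks in a ChIP-seq experiment (sequencing of DNA bound to an immunoprecipitated chromatin protein) for JARID2. The members were the peaks whose listed gene symbol was 1 of 33 nuclear pore symbols. NUP96 and NUP98 are products of 1 gene, and NUPL1 is the older symbol of NUP58, so the symbols stand for 31 genes. Of these, 28 had a peak, with 56 peaks in all out of 67071 in the list. The cells were MDA-MB-231, an established human triple-negative breast cancer line, labelled untreated, and the antibody was a polyclonal one against JARID2. There was 1 JARID2 ChIP library and 1 input library of DNA that was not precipitated. A peak list holds no expression, so the cell line's identity could not be checked against marker genes.

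JARID2 works with PRC2, the Polycomb repressive complex that methylates histone H3 at silenced developmental genes. Nuclear pores are built from repeated subcomplexes: a Y-shaped complex forms the outer rings, an inner ring lines the membrane pore, channel proteins with phenylalanine-glycine repeats hold the transport barrier, and a basket and filaments project to the nuclear and the cytoplasmic side. Membrane proteins anchor the ring. Nearly every cell type needs these genes, and some nucleoporins also touch chromatin.

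Each peak had a tag count (sequence reads in the peak), a fold enrichment over the peak caller's background and a false discovery rate (FDR, in percent), all of them the authors' own values. Over the whole list the median peak held 12 tags at a fold enrichment of 5.95 and an FDR of 44.2%, and 70.3% of peaks had an FDR above 40%. The total depth of the library is unknown. With 1 library no value has a replicate check and nothing was tested. Intervals reflect counting error alone. Amplified copies of a fragment are not separate molecules, so intervals of tags are too narrow if such copies were kept. A promoter peak lies within 3 kb of a transcription start site (TSS) of the transcript to which it was given. That transcript can be a short one that starts inside the gene. The listed distance runs to the near edge of the peak for each plus-strand transcript and to its far edge for each minus-strand one, so the promoter classes reach less far on the minus strand.

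Most pore peaks were weak, and 3 promoter peaks stood above the rest. Promoter peaks made up 31 of the 56 pore peaks (55.4%, 95% exact Clopper-Pearson interval 41.5 to 68.7), against 20.5% of all peaks. The whole list also holds peaks named for symbols that match no protein-coding gene, so the bases differ. Several pore peaks can belong to the same gene, which the intervals over peaks ignore. Of the others, 10 lay in introns, 6 in exons, 6 in distal intergenic sequence, 2 just downstream of a gene end and 1 in a 3′ UTR. The limit of an FDR of at most 5% was met by 3 pore peaks (5.36%, 1.12 to 14.9), at SEH1L, NUP98 and NUP210, beside 1.24% of all peaks. The next was AHCTF1 at 19.6%, so 4 pore peaks had an FDR of at most 20%, beside 4.15% of all peaks. The median pore peak held 13.5 tags (range 10 to 62) at a fold enrichment of 6.18 (range 2.65 to 29.14), close to the values of the whole list. The list of pore genes was drawn up with the SEH1L peak already known. The height of that peak, and the counts of low-FDR peaks that include it, are descriptions.

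**Figure D1:**
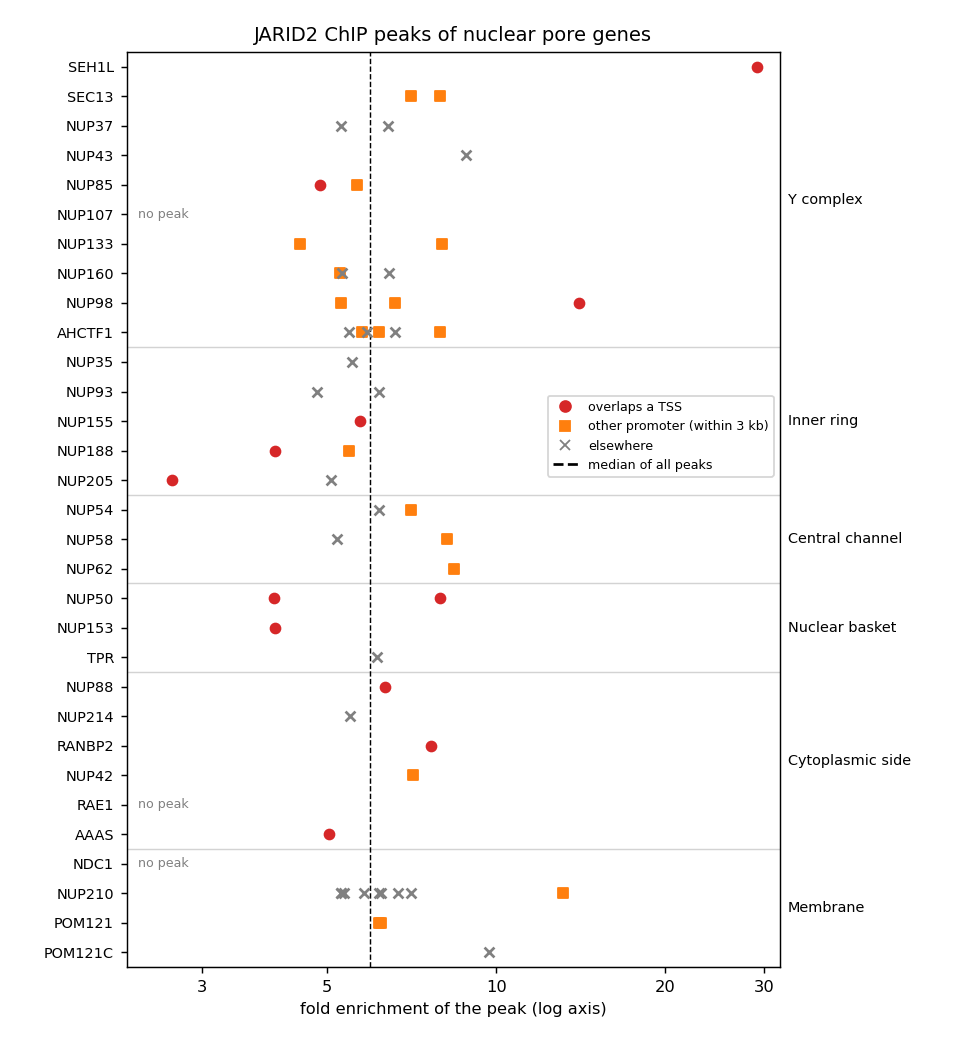
Fold enrichment (log axis) of each JARID2 peak of the 31 nuclear pore genes, grouped by subcomplex, with 1 symbol per peak and the dashed line at 5.95, the median of all peaks. SEH1L (29.14), NUP98 (14.03) and NUP210 (13.17) stand apart, and no other pore peak is above 9.71.

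By gene, promoter peaks were given to 21 of the 31 pore genes (67.7%, 48.6 to 83.3), where 33.1% of 20037 protein-coding genes had one. In the listed class within 1 kb of a TSS the count was 14 pore genes (45.2%, 27.3 to 64.0) beside 22.3% of all. With the distance taken to the nearest edge of the peak on both strands, it was 17 (54.8%, 36.0 to 72.7) beside 24.8%, the added genes being NUP133, NUP210 and NUP54. At 3 kb the nearest edge gave 22 pore genes, with NUP37 added, beside 34.1%. For peaks overlapping a TSS the count was 11 (35.5%, 19.2 to 54.6) beside 13.8%. At an FDR of at most 5%, promoter peaks remained at 3 pore genes (9.68%, 2.04 to 25.8) beside 2.47%. These include SEH1L, whose strong peak was known when the list was drawn up, so this share is a description. Counting any peak gave 28 pore genes (90.3%, 74.2 to 98.0) beside 56.3%. Genes are not replicates and were not matched on length or expression, whose part in these shares was not tested. The highest promoter fold enrichment per gene had a median of 7.12 over the 21 pore genes and 6.18 over the 6639 protein-coding genes with a promoter peak. It lay above 6.18 for 14 of the 21, SEH1L included, and for 11 of the 18 without the 3 genes at an FDR of at most 5%.

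SEH1L, a β-propeller subunit of the Y complex that also serves in the GATOR complex of nutrient signalling, carried the strongest pore peak. Its 1 peak (chr18:12948037-12948840 on hg19) held 62 tags (95% Poisson interval 47.5 to 79.5) at 29.14-fold with an FDR of 0, and it overlapped the start of a transcript of 30.8 kb. At 77.1 tags per kb it was the densest pore peak, where the median over all peaks was 24.8. Among the highest promoter peaks of 6639 protein-coding genes it ranked 12th. Genes just above it included GLS2 (43.27), CSTF3 (36.81) and ZNF785 (30.02). Those just below were HSF2BP (28.77), HLTF (28.3), DHDDS (28.19), and SMC1B and MEX3D (27.37 each). Each of the peaks named had an FDR of 0, as SEH1L did, and all but that of MEX3D overlapped a TSS.

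Relative to the listed TSS, with bases before it counted as negative, the SEH1L peak ran from -10 to 793 bp and had its summit at 536 bp. NUP98 differed in this. Its gene encodes a precursor that is cut into NUP98, a mobile channel protein that binds RNA export factors, and NUP96, a scaffold of the Y complex. The NUP98 peak at the start of a 123 kb transcript (chr11:3818888-3819630) held 48 tags (35.4 to 63.6) at 14.03-fold with an FDR of 0. It reached from -608 to 134 bp relative to the TSS, and its summit lay at -280 bp. NUP98 shares a divergent promoter region with PGAP2, a gene on the other strand whose start lies within 1 kb in the RefSeq annotation, so the peak cannot be told apart between the 2 genes. The other NUP98 peaks were named for transcripts of 1.79 and 7.13 kb. The first (chr11:3719440-3719908) held 11 tags at 5.3-fold with an FDR of 43.8%, and the second (chr11:3723035-3723489) 14 tags at 6.61-fold with an FDR of 35.4%.

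NUP210, a membrane glycoprotein of the pore that is known for roles in muscle and T cells, was given 9 peaks, the most of any pore gene, and 1 of them was strong. That peak (chr3:13460477-13461441) held 33 tags (22.7 to 46.3) at 13.17-fold with an FDR of 0.29%. It lay inside the gene, from 368 to 1332 bp after the start of the 104 kb transcript, with its summit at 702 bp. The other 8 NUP210 peaks held 10 to 14 tags at 5.3 to 7.06-fold, and their FDRs were between 37.9% and 47.9%. They comprised 2 intronic, 2 exonic (exons 7 and 30 of 40) and 4 distal intergenic peaks, the farthest 111 kb from the transcript start to which it was assigned.

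The RefSeq sequences of the 250 bases before the start of these genes (GRCh38.p14) show what kind of promoter sits beside the strong peaks, with NUP153 added because its TSS peak held many tags at a low fold enrichment. SEH1L lies on the plus strand at chr18:12947761-12948010, NUP98 on the minus strand at chr11:3797547-3797796, NUP210 on the minus strand at chr3:13420323-13420572 and NUP153 on the minus strand at chr6:17706926-17707175. Each runs 5′ to 3′ in the gene's direction. Capitals mark exact matches, on either strand, to 7 short words: GGGCGG (an SP/KLF-type GC box), CCGGAAG (ETS-type), CACGTG (E-box), TTCCCGC (E2F-type), CCAAT, TGACGTCA (CRE) and AAGATGG (YY1-type).
SEH1L: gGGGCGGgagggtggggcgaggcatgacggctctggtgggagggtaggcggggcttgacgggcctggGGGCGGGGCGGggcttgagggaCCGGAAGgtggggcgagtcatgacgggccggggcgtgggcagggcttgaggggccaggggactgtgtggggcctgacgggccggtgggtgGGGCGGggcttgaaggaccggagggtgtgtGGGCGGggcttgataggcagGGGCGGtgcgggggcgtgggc
NUP98: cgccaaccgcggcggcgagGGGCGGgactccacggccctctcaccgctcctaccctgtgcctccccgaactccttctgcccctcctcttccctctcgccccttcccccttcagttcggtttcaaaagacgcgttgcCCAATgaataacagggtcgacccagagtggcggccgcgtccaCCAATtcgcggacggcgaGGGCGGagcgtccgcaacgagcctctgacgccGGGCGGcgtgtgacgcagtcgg
NUP210: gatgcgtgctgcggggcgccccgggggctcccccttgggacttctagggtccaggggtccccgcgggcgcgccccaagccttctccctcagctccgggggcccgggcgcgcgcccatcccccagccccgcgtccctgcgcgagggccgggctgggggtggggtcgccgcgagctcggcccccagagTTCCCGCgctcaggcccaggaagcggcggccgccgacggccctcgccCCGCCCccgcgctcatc
NUP153: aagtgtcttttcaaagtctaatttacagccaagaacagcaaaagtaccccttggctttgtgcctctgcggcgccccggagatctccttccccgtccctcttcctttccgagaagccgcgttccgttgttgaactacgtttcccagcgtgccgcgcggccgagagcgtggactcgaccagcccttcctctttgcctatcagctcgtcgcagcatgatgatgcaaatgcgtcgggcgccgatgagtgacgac

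The SEH1L window was rich in G and C (76.4%) with 20 CG pairs, and held 6 GC boxes and 1 CCGGAAG word. It also held 5 copies of GGCTTGA, a word looked for only after the sequence was seen, which was found in 2.53% of 15843 promoters and 5 times in SEH1L alone. By the file's TSS the SEH1L peak starts at -10 bp, so these words would lie beside the peak if the RefSeq start were the same. The NUP98 peak covered its whole window by the file's TSS, and that sequence held 3 GC boxes and 2 CCAAT words among 31 CG pairs. NUP210 had the highest GC share of the 4 at 80.8%, with 33 CG pairs, 1 TTCCCGC word and 1 GC box. The NUP153 window held 23 CG pairs and matched none of the 7 words. The file's TSS and the RefSeq start come from different annotations and builds and were not aligned. How far they differ was not measured, so the overlap of peak and printed window is not known.

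Over the 29 pore genes in the promoter table, the ETS-type word CCGGAAG was found in 13 promoters (44.8%), beside 11.8% of 15843 protein-coding promoters of the same length. Promoter peaks were given to 8 of those 13 genes and to 12 of the 16 without the word. GC boxes were present in 41.4% of pore promoters and 56.0% of all, CCAAT in 34.5% and 34.5%, CACGTG in 6.90% and 7.84%, TTCCCGC in 6.90% and 7.44%, TGACGTCA in 10.3% and 2.32%, and AAGATGG in 3.45% and 3.35%. The number of CG pairs per window ranged from 7 in NUP155 to 40 in NUP50, with a median of 22 for pore genes and 17 for all promoters. A word match is a description of these letters and not a binding site.

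The remaining Y complex genes had weak peaks or none. The Y complex held 22 of the 56 pore peaks, and 7 of its 10 genes had a promoter peak, beside 33.1% of all protein-coding genes. AHCTF1, also called ELYS, recruits the Y complex to chromatin after mitosis. It was given 6 peaks, of which the one 11 to 388 bp after the start of its 92.3 kb transcript (chr1:247094277-247094654) held 16 tags at 7.94-fold with an FDR of 19.6%. Its other promoter peaks lay upstream of a 15.7 kb transcript, at chr1:247095890-247096479 with 15 tags at 5.76-fold (FDR 41.5%) and at chr1:247096812-247097461 with 16 tags at 6.19-fold (FDR 38.3%). The 3 remaining AHCTF1 peaks, in an intron, on an exon and beyond a neighbouring gene's end, had 6.61, 5.46 and 5.9. NUP133, a membrane-sensing stalk protein, had promoter peaks of 24 tags at 4.48-fold (chr1:229587184-229588078, FDR 39.1%) and 12 tags at 8.0-fold (chr1:229589046-229589386, FDR 34.9%), both upstream of a transcript of 2299 bp.

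SEC13, which is shared with the COPII coat of secretory vesicles, had promoter peaks of 7.95 (chr3:10343835-10344177, FDR 38.8%) and 7.06 (chr3:10348145-10348546, FDR 43.8%) with 10 tags each. NUP85, a subunit of the Y complex, had 5.66 with 14 tags at 2.71 kb into a 7.66 kb transcript (chr17:73217096-73217678, FDR 45.3%). Over the start of a 1.18 kb NUP85 transcript it had 4.85 with 10 tags (chr17:73223704-73224141, FDR 48.2%). NUP160, a large arm subunit, had a promoter peak of 5.27 with 16 tags (chr11:47871474-47872037, FDR 47.2%). Its 2 intergenic peaks, with their nearest edges at -12997 and -20997 bp from the start of a 9.06 kb transcript, had 18 tags at 6.45-fold (FDR 33.3%) and 27 tags at 5.31-fold (FDR 34.2%). NUP43, a β-propeller subunit, had no promoter peak but one on exon 4 of 8 (chr6:150063526-150064061) with 16 tags at 8.83-fold and an FDR of 23.5%. NUP37 carried 2 intronic peaks, with 11 tags at 5.3-fold and 14 tags at 6.42-fold (chr12:102489995-102490631, FDR 48.1%). NUP107, a core stalk protein, had no peak.

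**Figure D2:**
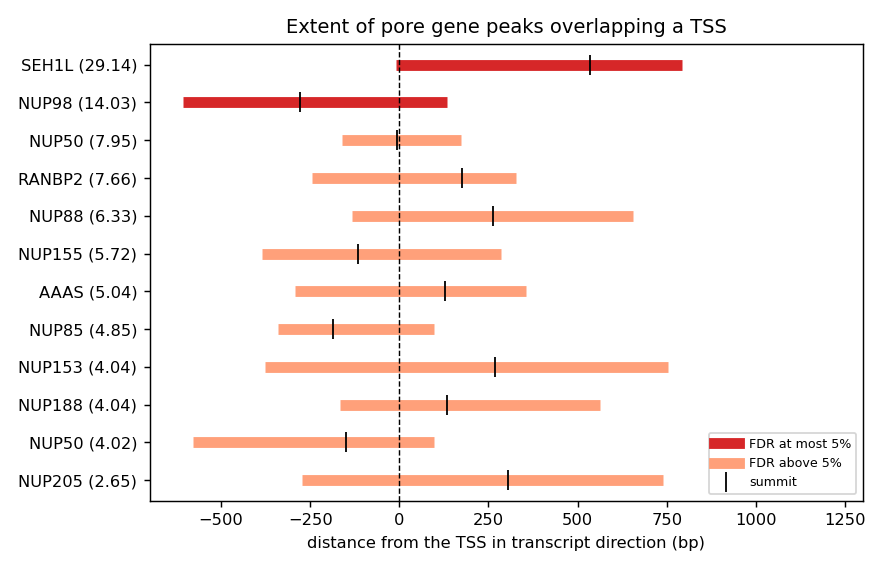
Horizontal bars show the extent of the 12 pore gene peaks that overlap a TSS, as distance in bp from that TSS in the direction of transcription, with the summit as a black tick and the fold enrichment after each symbol. The SEH1L bar lies almost wholly after the TSS (summit at 536 bp), and the NUP98 bar (summit at -280 bp), the NUP50 bar from -578 to 96 bp and the NUP85 bar from -339 to 98 bp lie mostly before it.

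Inner ring genes had only weak peaks, from 2.65 to 6.18-fold. NUP205, a large scaffold nucleoporin, had a TSS peak of 34 tags (23.5 to 47.5) at 2.65-fold (chr7:135242393-135243407, FDR 48.8%) and an intronic one of 16 tags at 5.09-fold (chr7:135278281-135278841, FDR 38.8%). Its paralog NUP188 had a peak of 27 tags at 5.46-fold (chr9:131708910-131709888, FDR 30.5%) that ended at -90 bp from the TSS of its 59.4 kb transcript. A second NUP188 peak, of 26 tags at 4.04-fold (chr9:131710130-131710860, FDR 39.6%), overlapped the start of a transcript of 8995 bp. NUP155, which links the ring to the membrane, had 19 tags at 5.72-fold over the start of a 1.54 kb transcript (chr5:37292990-37293662, FDR 45.6%). NUP93, the hub of the inner ring, had no promoter peak but intronic peaks of 10 tags each at 4.8 and 6.18-fold (the latter chr16:56859903-56860370, FDR 47.8%). NUP35 had only a 3′ UTR peak of 12 tags at 5.54-fold (chr2:184022159-184022640, FDR 47.2%).

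All 3 genes of the central channel had a promoter peak, beside 33.1% of all protein-coding genes. A peak overlapping a TSS was found at 0 of the 3, beside 13.8% of all, and 3 genes are too few to compare. NUP62 had 14 tags at 8.42-fold (chr19:50414322-50414749, FDR 37.1%). NUP58, listed as NUPL1, had 11 tags at 8.18-fold (chr13:25907091-25907483, FDR 40.5%), and a weaker intronic peak of 5.2. NUP54 had 10 tags at 7.04-fold (chr4:77050541-77050889, FDR 43.5%) and a peak of 6.19 downstream of a gene end. These 3 proteins form the trimer whose repeats fill the channel. Relative to the TSS, the promoter peaks ran from 1598 to 2025 bp for NUP62, from 1520 to 1912 bp for NUP58 and from 965 to 1313 bp for NUP54, in transcripts of 3.58 to 18.4 kb.

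On the nuclear side, NUP153, a basket protein that binds import receptors, had the widest pore peak, 1133 bp over its TSS (chr6:17705863-17706995), with 50 tags (37.1 to 65.9) at 4.04-fold and an FDR of 36.0%. NUP50, which helps to release import cargo, had peaks over the starts of 2 transcripts, with 21 tags at 4.02-fold (chr22:45559144-45559818, FDR 45.8%) and 10 tags at 7.95-fold (chr22:45560002-45560335, FDR 38.4%). TPR, the main basket filament, had only a peak on exon 22 of 51, with 12 tags at 6.13-fold (chr1:186316359-186316898, FDR 47.9%).

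On the cytoplasmic side, 4 of 6 genes had a promoter peak, beside 33.1% of all protein-coding genes. RANBP2, a giant filament protein with SUMO ligase activity, had 17 tags at 7.66-fold over its TSS (chr2:109335692-109336265, FDR 34.0%). NUP88, the partner of NUP214, had 21 tags at 6.33-fold over the start of a 25.3 kb transcript (chr17:5288872-5289660, FDR 24.5%). AAAS, the triple-A syndrome gene, had 17 tags at 5.04-fold over its TSS (chr12:53715061-53715708, FDR 46.9%). NUP42, listed as NUPL2 and a partner of the RNA export factor GLE1, had 12 tags at 7.12-fold, -2.55 kb from a TSS (chr7:23230992-23231472, FDR 43.6%). NUP214 had only a peak on exon 31 of 36, of 14 tags at 5.49-fold (chr9:134090194-134090813, FDR 48.2%), and RAE1, an RNA export factor, had none.

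Among the membrane proteins, POM121 had promoter peaks of 11 tags at 6.18-fold (chr7:72350383-72350885, FDR 45.7%) and 12 tags at 6.24-fold (chr7:72398478-72399013, FDR 47.0%). Its near-identical copy POM121C had an intronic peak of 11 tags at 9.71-fold (chr7:75103149-75103458, FDR 31.3%). Reads from these copies may not be separable, and the sources used here do not say how reads with several matches were treated. NDC1, which anchors AAAS in the membrane, had no peak. Related copies of pore genes were given 10 peaks under 4 symbols (NUP210L, POM121L12, POM121L3P and the antisense RNA RGPD4-AS1), of which 1 was a promoter peak and 0 had an FDR of at most 5%.

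Tags and fold enrichment put the pore peaks in different orders. Over the 12 pore peaks on a TSS, the 3 with most tags were SEH1L (62), NUP153 (50) and NUP98 (48), but NUP153 stood at 4.04-fold. NUP205 had more tags (34) than 8 of the others and the lowest fold enrichment. Tags divided by fold enrichment, a rough measure of the background that the caller set against the peak, came to 2.13 for SEH1L and 3.42 for NUP98. For NUP153 and NUP205 they came to 12.4 and 12.8, at percentiles 97.7 and 98.0 of the 3668 peaks on a TSS, whose median was 3.38. Over the 56 pore peaks Spearman's rho between tags and fold enrichment was -0.08, and over all peaks it was -0.06. These are descriptions across peaks of 1 library. The ratio contains the fold enrichment and is not independent of it.

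**Figure D3:**
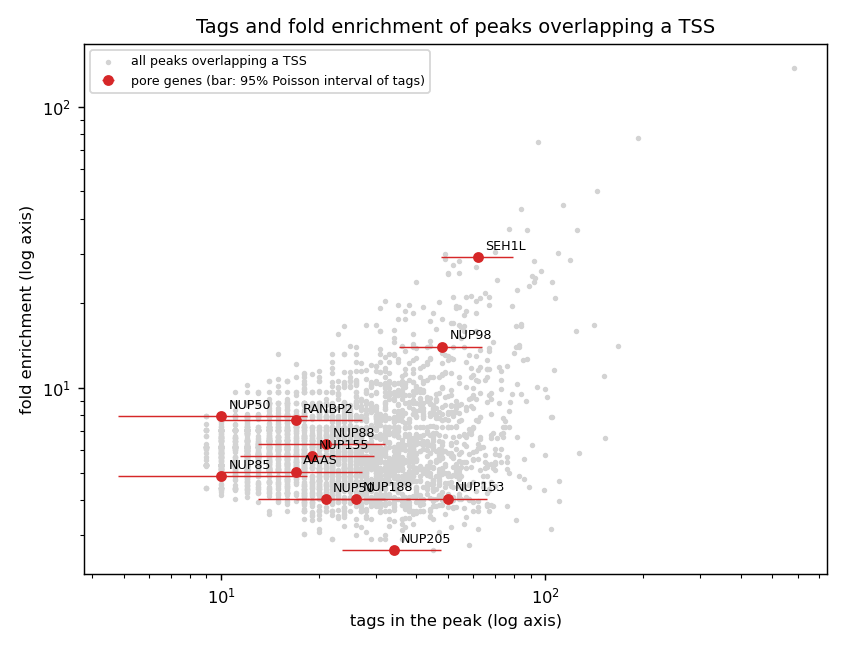
Tags per peak against fold enrichment (both log axes) for all 3668 peaks overlapping a TSS in grey and the 12 pore gene peaks in red, with the 95% Poisson interval of the tags as bars. NUP153 and NUP205 lie at the lower edge of the cloud with 50 and 34 tags. SEH1L ranks 13th of these peaks in fold enrichment, and its tags divided by fold enrichment lie at percentile 22.3.

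Naming by the nearest transcript can give a pore promoter to a neighbour. In the RefSeq annotation 6 of the 31 pore genes had a divergent neighbour within 1 kb, against 9.71% of all protein-coding genes. NUP37 was the 1 case in which the neighbour, PARPBP, carried the TSS peak (chr12:102517651-102518771, 28 tags, 5.46-fold, FDR 23.7%). PGAP2, DOLK, ATF5, ODR4 and RPAIN, the neighbours of NUP98, NUP188, NUP62, TPR and NUP88, had no TSS peak of their own. With such peaks counted for both genes, 22 pore genes (71.0%) had a promoter peak beside 34.2% of all. A further 6 peaks lay within NUP153, NUP160, NUP98 or SEC13 under other names, at 3.64 to 6.05-fold with FDRs of 37.7% or more.

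Genes of the wider nuclear transport machinery gave 1 strong promoter peak. Of 46 import and export receptors, Ran cycle and mRNA export genes, 23 had a promoter peak (50%, 95% interval 34.9 to 65.1), beside 33.1% of all protein-coding genes. Their median highest fold enrichment was 5.72 beside 7.12 for pore genes, a difference that was not tested. RAN, the GTPase that gives transport its direction, led with 40 tags at 8.48-fold and an FDR of 0.52%. It was the 1 gene of this list at an FDR of at most 5%, a share of 2.17% beside 2.47% of all protein-coding genes. SENP2 (7.7), RANBP3 (7.38) and the export receptor XPO1 (7.28) followed.

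Other housekeeping gene groups were set beside the pore genes, with no test of the differences. Promoter peaks were found at 65.0% of 20 mRNA 3′ end factors (40.8 to 84.6), 39.5% of 86 cytosolic ribosomal protein genes (29.2 to 50.7) and 39.0% of 77 mitochondrial ribosomal protein genes (28.0 to 50.8). The share over all protein-coding genes was 33.1%. The median highest promoter fold enrichment was 6.18, 5.75 and 5.54 in the 3 groups. Leading genes were CSTF3 (36.81), RPL31 (13.48) and MRPS11 (8.83). At an FDR of at most 5% the counts were 1 of 20, 5 of 86 and 0 of 77 (exact upper bound 4.68%). Beside these stood 3 of 31 pore genes, SEH1L included, and 2.47% of all protein-coding genes.

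**Figure D4:**
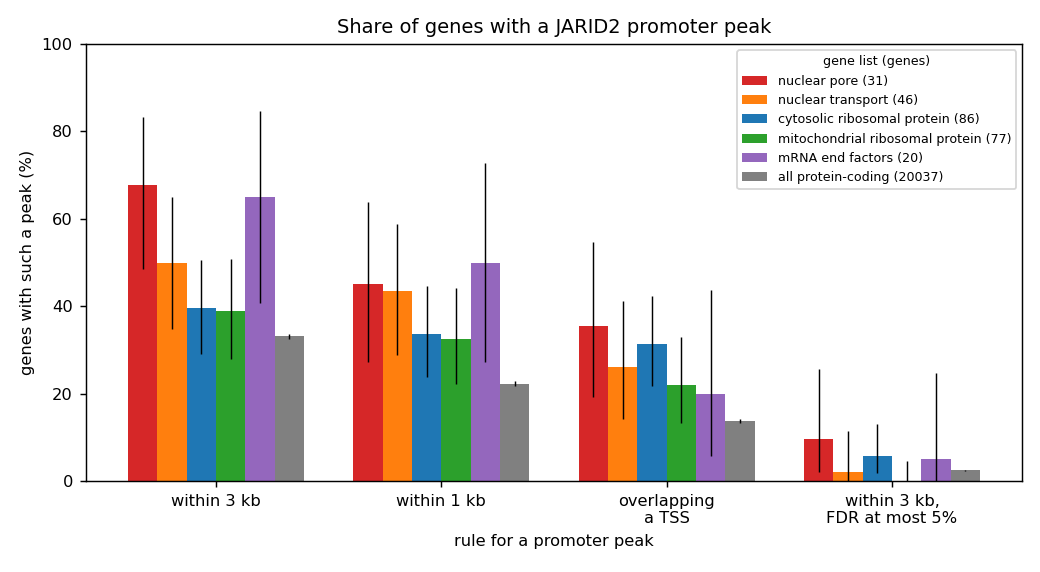
Share of genes in percent with a JARID2 promoter peak under 4 rules (listed distance classes), for pore genes, 4 comparison lists and all protein-coding genes, with 95% exact intervals as error bars. Pore genes have the tallest bar within 3 kb (67.7%), and the intervals of the small lists overlap under each rule.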

How the data were processed

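The data are the authors' annotated peak list of 1 JARID2 ChIP-seq library. The submitters' processing notes name the hg19 build and, without roles, the aligner Bowtie 0.12.8, both MACS and MACS2, the annotator ChIPseeker, and bcl2fastq. Calling thresholds and duplicate handling were not found in them. Per the file headers, the authors deposited for each peak a raw tag count, a fold enrichment (a ratio to background) and an FDR in percent. A deposited score with an unreadable header, with a smallest value of 30, was read as −log10 p multiplied by 10. In the minus-strand gene NUP210 the list numbers exons along the transcript and introns against it, so intron numbers are not printed.

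Symbols were matched to 20037 protein-coding genes in RefSeq (GRCh38.p14), by symbol or by a synonym of 1 gene (11310 of 26257 listed symbols). All 31 pore genes matched, and 2 were listed under an older symbol. Promoter sequences are RefSeq's (GRCh38.p14, 29 of 31 pore genes, first listed start). A 10-base word among the motifs planned was not searched. Exact Clopper-Pearson and Poisson intervals were computed with scipy 1.17.1 in Python 3.11.15. Counting was tested on simulated data. The input library was not analysed here. The members, gene lists and limits were chosen with earlier results of these data known. Every pore gene is named; in other lists, up to 4 genes with the highest promoter fold enrichment, and the 5 genes ranked on each side of SEH1L, of which some are not reported here.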

Additional observations from a re-analysis of the deposited data

How the results depend on the processing

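No alternative ran across replicates, since there was 1 ChIP library. No paired analysis was possible because each group held 1 library. Stricter limits cut the number of pore genes with a peak from 28 to 14 in the top 25% by fold enrichment, 10 at −log10 p of at least 5, 8 at 8-fold or more, 4 at an FDR of at most 20% and 3 at 10% or 5%. The share of all protein-coding genes under these limits was 25.7%, 18.3%, 8.78%, 8.04%, 4.43% and 3.01%. For promoter peaks the count fell from 21 to 12, 7, 6, 4, 3 and 3 under the same limits, beside 11.2%, 9.89%, 4.39%, 5.44%, 3.39% and 2.47% of all. It was 11 for overlap with a TSS. The count was within 1.5 times of 21 in the listed class of 1 kb (14), by the nearest edge of the peak at 1 kb (17) and 3 kb (22), with divergent neighbours (22) and without SEH1L (20), the last 4 chosen after the data were seen. Listed symbols alone gave 26 genes with a peak. Peaks of any name in pore spans left 28, since spans were known only for genes with a peak. The median highest promoter fold enrichment of 7.12 became 6.26 in the listed 1 kb class, which leaves out NUP210, where all genes had 6.13. By the nearest edge it was 6.33 at 1 kb and 7.08 at 3 kb, beside 6.12 and 6.18. In tags it was 17 beside 17 for all genes, and in tags per kb 29.6 beside 27.3. Within 3 kb the higher median thus held in fold enrichment and tags per kb and not in tags. For peaks overlapping a TSS the order was reversed, with a median fold enrichment of 5.38 over 12 pore peaks and 5.99 over all 3668. The interquartile range of tags was 11 to 17 over pore peaks, and counts this low limit any ranking among them.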
